A study of Mus musculus and Homo sapiens with 12 samples.

Results

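The glutamate tRNAs (tRNA-Glu) are described here across a genome-wide tRNA-charging assay of MEF and NTERT cells. They were taken as every tRNA gene that the deposited count files name as a glutamate tRNA, which gave 6 of 224 genes in the mouse files and 7 of 260 genes in the human files. In both species they fall into 2 isoacceptors named by their anticodons, tRNA-Glu-CTC and tRNA-Glu-TTC, written Glu-CTC and Glu-TTC below. MEF cells, a line of mouse embryonic fibroblasts, were kept for 6 h in medium with dialyzed serum, either without drug (NT, not treated) or with 100 nM halofuginone (HF). These hours are those of the sample labels, whereas the text of the study gives a shorter HF treatment. NTERT cells, an immortalized line of human keratinocytes, were left untreated (NT) or exposed to 400 J/m2 of UV-B and given 3 h of recovery. Each of the 4 groups had 3 libraries, 12 in all, and a group stands for 1 cell line. The files hold tRNA reads only, so the labelled cell types could not be checked against marker genes.

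Glutamate tRNA is joined to glutamate by EPRS, a bifunctional enzyme whose separate glutamyl and prolyl parts charge the tRNAs of glutamate and of proline. HF occupies the prolyl part and is not known as an inhibitor of the glutamyl part, which makes tRNA-Glu the substrate of the same polypeptide that the drug does not target. An uncharged tRNA is also the molecule to which the eIF2 kinase GCN2 is thought to bind when amino acids run short.

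In the assay, periodate destroys the last nucleotide of a tRNA that carries no amino acid, so that such a tRNA ends in CC, whereas a charged tRNA keeps its full CCA end. The percentage of charging is the share of CCA ends among the reads with either end. The files carry no column names, and the columns were told apart by the fall of tRNA-Pro under HF, so the direction of every charging value below rests on that reading. A library had from 253693 to 6286863 reads on tRNA genes. In MEF cells, 3.43 to 9.52% of all reads fell on tRNA genes in the NT libraries against 19.1 to 27.8% in the HF libraries. In NTERT cells the corresponding ranges were 1.33 to 4.66% and 1.53 to 3.71%.

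In the mouse annotation of RefSeq (GRCm38.p6), 20 genes are glutamate tRNAs, 12 with the CTC and 8 with the TTC anticodon, each 72 bases long and spread over 10 chromosomes. They include a run of 4 CTC genes on chromosome 1, from chr1:171064164 to chr1:171103114, the first of which lies within an intron of Fcgr3. A pair of TTC genes on chromosome 3, between chr3:96346675 and chr3:96387476, lies within introns of the non-coding genes Platr30 and Gm17575. In all, 7 of the 20 lie within introns of GENCODE genes, 13 between genes and 0 in exons. Identical copies share 1 name in the count files, and the names of the files could not be tied to these loci. The enzyme itself is encoded by Eprs at chr1:185363044-185428360 in mouse (GRCm38) and by EPRS1 at chr1:219968600-220046530 in human (GRCh38).

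tRNA-Glu took a large part of the reads. It held 18.5%, 20.1% and 27.6% of the reads on tRNA genes in MEF NT libraries 1 to 3, and 17.8%, 22.3% and 31.5% in the HF libraries. In NTERT cells it held 26.0%, 28.8% and 37.6% in the NT libraries against 27.3%, 26.6% and 32.2% after UV-B. Among the 21 amino acids counted, selenocysteine included, it ranked 1 in all 6 NTERT libraries, and 1 or 2 in every MEF library.

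A single gene name carried nearly all Glu-CTC reads. In MEF cells Glu-CTC-1-1 made up 99.8 to 99.9% of the reads of its isoacceptor, Glu-CTC-2-1 had 137 to 892 reads per library, and Glu-CTC-5-1 had 0 to 2 reads, none with an end. In NTERT cells Glu-CTC-1-1 made up 84.8 to 98.6%, and the rest came from Glu-CTC-2-1.
The Glu-TTC reads were divided differently in the cell types. In MEF cells, Glu-TTC-1-1 held 62.6 to 78.4% of them, Glu-TTC-2-1 20.6 to 36.3% and Glu-TTC-3-1 0.643 to 1.65%. In NTERT cells, Glu-TTC-4-1 led with 36.4 to 47.9%, followed by Glu-TTC-2-1 with 26.0 to 32.2% and Glu-TTC-3-1 with 14.7 to 17.5%. The name Glu-TTC-1-1 held 8.00 to 12.9% there, and Glu-TTC-14-1 1.69 to 4.37%. The genes of an isoacceptor are close in sequence, so reads may have been divided between them by the alignment, and equal names in the mouse and human files were not taken to be the same gene.

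The first comparison asked whether charging of tRNA-Glu changed when HF was added to MEF cells. The percentage of charging of Glu-CTC was 55.2%, 38.6% and 77.9% in NT libraries 1 to 3, and 87.8%, 88.2% and 79.4% in the HF libraries. All HF libraries lay above all NT libraries, although HF library 3 was above NT library 3 by a small margin. The means were 57.2% ± 19.7 (SD, n = 3) and 85.1% ± 5.0 (SD, n = 3). On the scale of log2 (charged/uncharged), Glu-CTC rose by 2.08 (standard error 0.73, 95% interval 0.65 to 3.51, adjusted p = 0.0274 from limma). In this fit limma gave every MEF isoacceptor the same standard error, from a variance pooled over all of them. The SD of Glu-CTC itself on this scale was 1.25 in the NT and 0.54 in the HF libraries. The MEF fits of amino acids and of genes below were pooled in the same way. The isoacceptors of a library moved together, so the pooling may give p-values that are too small.
Glu-TTC was charged at 72.6%, 54.7% and 89.7% in the NT libraries, and at 94.2%, 94.1% and 90.0% in the HF libraries. Here too the groups did not overlap, and NT library 3 and HF library 3 were nearly equal. The means were 72.3% ± 17.5 (SD, n = 3) and 92.8% ± 2.42 (SD, n = 3), and the log2 ratio rose by 2.13 (standard error 0.73, adjusted p = 0.0271 from limma). With the isoacceptors combined, the log2 ratio of tRNA-Glu rose by 2.20 with a standard error of 0.72. Its adjusted p was 0.0297 in limma over 21 amino acids, of which 4.76% were called higher. This call was lost in limma without NT library 1 (2.11, adjusted p = 0.231), NT library 2 (1.58, adjusted p = 0.298), HF library 1 (2.09, adjusted p = 0.0912) or HF library 2 (2.05, adjusted p = 0.244).

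Both Glu isoacceptors thus passed the threshold of 0.05, where 12.5% of the 48 tested isoacceptors were called higher and 22.9% had all HF libraries above all NT libraries. By the size of the change, Glu-TTC ranked 3 and Glu-CTC 5 of the 48. The whole set moved in the same direction, with a median log2 change of 1.21 and 45 of 48 isoacceptors higher under HF. Once the median isoacceptor of each library was subtracted, the changes were 0.72 for Glu-CTC (adjusted p = 0.487 from limma) and 0.77 for Glu-TTC (adjusted p = 0.502), and the groups overlapped. On that scale limma called 0 of the 48 isoacceptors higher (0%), and 4 had an unadjusted p under 0.05 in either direction. The calls without that subtraction were also lost, in limma, when either NT library 1 or 2, or either HF library 1 or 2, was left out. Without these libraries in turn, the change of Glu-CTC was 1.99, 1.51, 1.94 and 1.91 and that of Glu-TTC 2.03, 1.47, 1.98 and 2.00, with adjusted p-values between 0.0897 and 0.246.

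**Figure D1:**
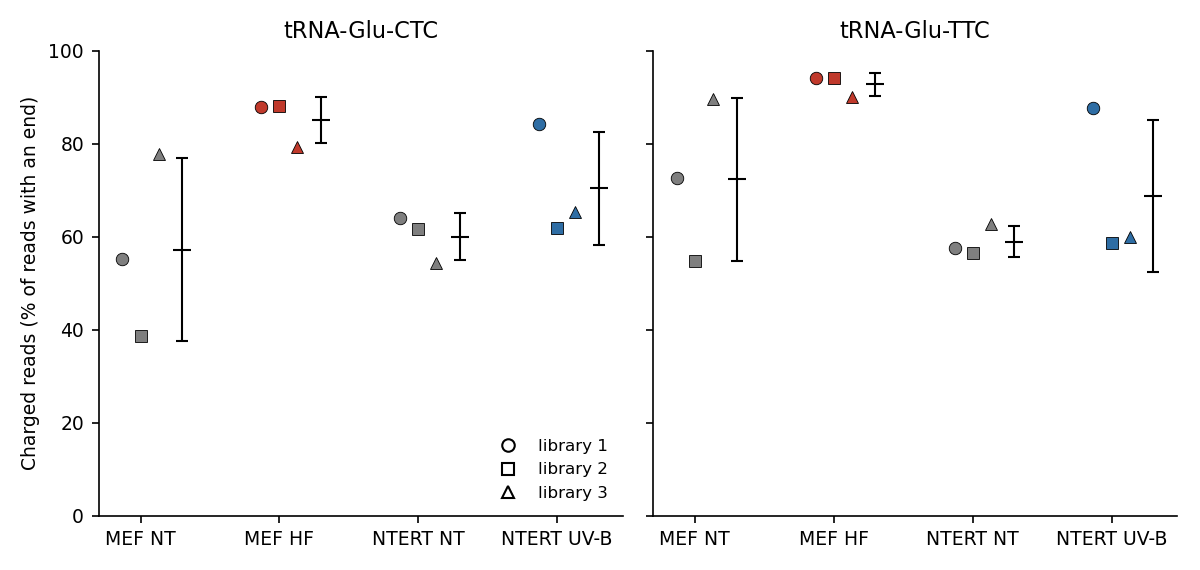
Percentage of charging (charged reads over reads with a CCA or CC end) of Glu-CTC and Glu-TTC in each library, by group. Points are libraries, and horizontal marks with bars are the mean and SD of 3 libraries. MEF NT libraries 1 and 2 lie well below the HF libraries, and NT library 3 lies close beneath HF library 3 only. UV-B library 1 stands above the other NTERT libraries.

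The place of tRNA-Glu within each library shows the same spread. Among the 48 isoacceptors, ranked from the most charged, Glu-CTC was at place 42, 44 and 29 in NT libraries 1 to 3 and at 27, 21 and 23 in the HF libraries. Glu-TTC was at place 23, 25 and 3 in the NT libraries and at 7, 1 and 2 in the HF libraries. Glu-TTC was therefore among the most charged isoacceptors of the HF libraries, and was already at place 3 in NT library 3.
In that library the log2 ratio was above the mean of the other NT libraries by 2.00 for Glu-CTC and 2.29 for Glu-TTC, where the median over the 48 isoacceptors was 1.18. In NT library 2 the corresponding differences were -1.73 and -1.99, with a median of -1.27. Both members thus spread between the untreated libraries by more than the median isoacceptor did. How far this spread, or the larger share of reads on tRNA genes in the HF libraries, bears on the change under HF was not tested.

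A steady difference was seen between the isoacceptors. In each of the 6 MEF libraries Glu-TTC was more charged than Glu-CTC, by 11.9 to 17.3 percentage points in the NT and by 5.91 to 10.6 points in the HF libraries. On the log2 scale, Glu-CTC minus Glu-TTC was -1.10, -0.94 and -1.31 in the NT libraries against -1.18, -1.10 and -1.22 in the HF libraries. The mean difference was -1.12 ± 0.19 (SD, n = 3) and -1.17 ± 0.06 (SD, n = 3). The groups overlapped, and a two-sided exact permutation test of the change gave p = 0.8, where the smallest p for 3 libraries against 3 is 0.1. Narrower gaps in percentage points under HF therefore go with a gap on the log2 scale for which no change was detected.

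The genes within each isoacceptor differed as well. Glu-TTC-1-1 was charged at 78.2%, 61.4% and 92.3% in the NT libraries and at 94.8%, 95.6% and 93.3% in the HF libraries. Glu-TTC-2-1 was charged at 59.1%, 40.3% and 80.4% in the NT libraries and at 93.4%, 88.5% and 79.3% in the HF libraries. Glu-TTC-1-1 was above Glu-TTC-2-1 in 6 of 6 libraries, by 0.38 to 1.86 on the log2 scale, and above Glu-TTC-3-1 in 6 of 6 by 0.63 to 1.66. Glu-CTC-1-1, in contrast, was close to Glu-TTC-2-1, with log2 differences from -0.96 to 0.01 and a median of -0.16. The difference of -0.96 was that of HF library 1, where Glu-TTC-2-1 was nearer to Glu-TTC-1-1. Glu-CTC-1-1 was below Glu-TTC-3-1 in 6 of 6 libraries, with log2 differences from -0.71 to -0.09 and a median of -0.19. Glu-TTC-1-1, the most read TTC gene, stood above the other tested Glu genes in each library, whereas the distance of the minor TTC genes from Glu-CTC-1-1 varied between libraries.
The counts behind the minor genes were low in places. Glu-CTC-2-1 in NT library 2 was charged at 46.2% on 78 reads with an end (95% Wilson interval 35.5 to 57.1%, counting error only), whereas Glu-CTC-1-1 in the same library, at 38.6% on 66843 reads, had an interval of 38.3 to 39.0%.

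Of the 6 Glu genes in MEF cells, 5 had a mean of at least 50 reads with an end and were tested. All 5 had a higher mean log2 ratio under HF, as had 134 of all 139 genes tested, with changes between 1.84 and 2.23 and a median of 2.08, beside a median of 1.30 over those 139. The 3 called higher were Glu-CTC-1-1 (2.08, adjusted p = 0.0442), Glu-TTC-1-1 (2.11, adjusted p = 0.0413) and Glu-TTC-2-1 (2.23, adjusted p = 0.0322 from limma), where 11.5% of all tested genes were called higher. For Glu-TTC-2-1 the groups overlapped, since HF library 3 was below NT library 3. Glu-TTC-3-1 had a change of 1.93 with an adjusted p of 0.0598 and groups that did not overlap, as for 28.1% of all genes tested, and Glu-CTC-2-1 a change of 1.84 with an adjusted p of 0.0751 and overlapping groups. The 3 calls were lost when any of NT libraries 1 and 2 and HF libraries 1 and 2 was left out, where the changes were 1.43 to 2.21. With a replicate block they were lost as well (adjusted p = 0.147, 0.141 and 0.126 from limma, in the order above), and 0 of the 139 genes were called, 32 of which had an unadjusted p under 0.05. Glu-TTC-3-1 was called with a pseudocount of 5 (1.91, adjusted p = 0.0451 from limma), and Glu-CTC-2-1 and Glu-TTC-3-1 were called without NT library 3 (2.57 and 2.48) or HF library 3 (2.07 and 2.22).

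**Figure D2:**
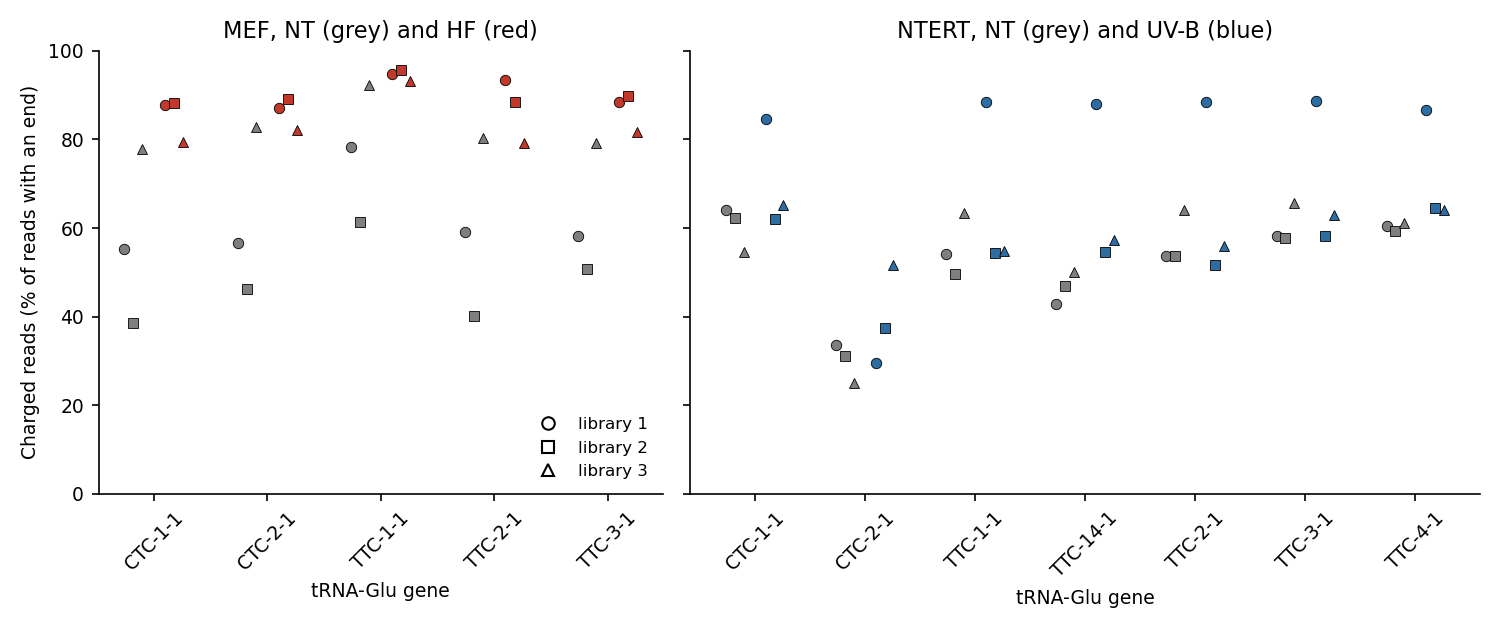
Percentage of charging of each tested Glu gene in each library, for 5 genes in MEF cells (left) and 7 in NTERT cells (right). Points are libraries, with NT in grey, HF in red and UV-B in blue. Glu-TTC-1-1 is the most charged gene in every MEF library, and Glu-CTC-2-1 the least charged in every NTERT library.

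The share of reads was compared for each isoacceptor. Glu-CTC took 11.1%, 13.3% and 14.6% of the reads on tRNA genes in the MEF NT libraries against 9.42%, 10.5% and 12.3% in the HF libraries, and Glu-TTC took 7.38%, 6.80% and 12.9%, then 8.36%, 11.8% and 19.2%. The groups overlapped for both. Neither change in the share of reads passed the threshold, with log2 changes of -0.16 for Glu-CTC (adjusted p = 0.815) and 0.63 for Glu-TTC (adjusted p = 0.205 from limma after TMM scaling), where 12.5% of the 48 isoacceptors were called higher and 2.08% lower.
Set against each other within a library, there were 1.51, 1.95 and 1.13 Glu-CTC reads per Glu-TTC read in the NT libraries against 1.13, 0.892 and 0.641 in the HF libraries. All HF libraries were below all NT libraries, although NT library 3 and HF library 1 differed by less than the rounding. On average, the log2 ratio went from 0.58 ± 0.39 (SD, n = 3) to -0.21 ± 0.41 (SD, n = 3), a difference of -0.79 with p = 0.1 in the exact permutation test, the smallest it allows, and 0.2 after adjustment over both isoacceptor comparisons.

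**Figure D3:**
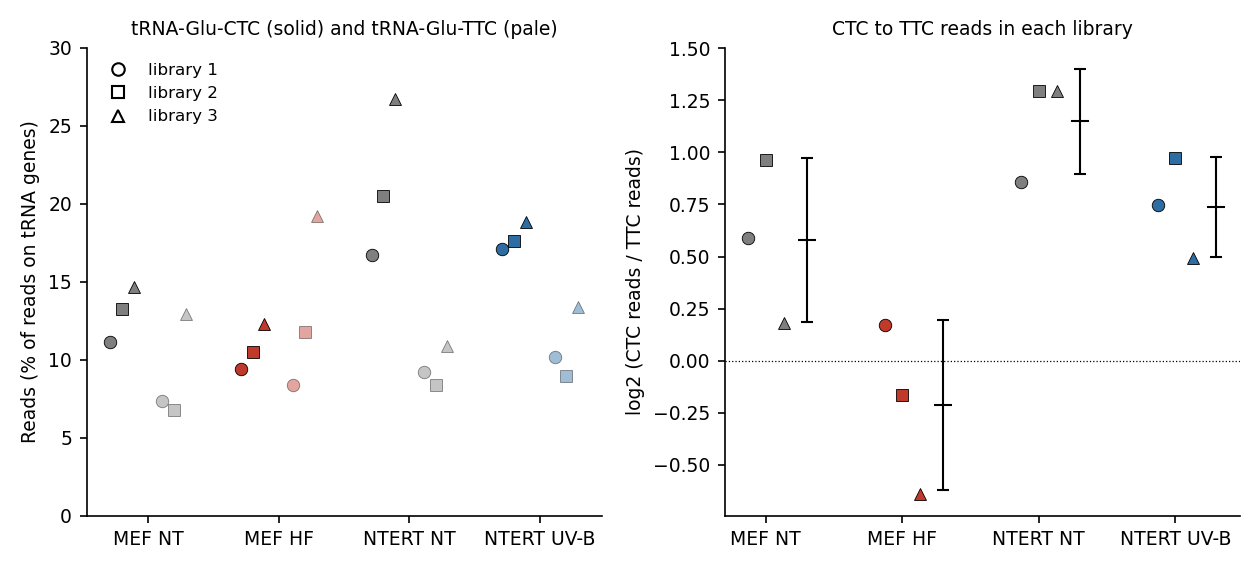
Left, reads of Glu-CTC (solid) and Glu-TTC (pale) as a percentage of the reads on tRNA genes in each library. Right, log2 of Glu-CTC reads over Glu-TTC reads, with the mean and SD of 3 libraries beside the points. The ratio is lower under HF in every library of the MEF comparison, by a small margin between NT library 3 (0.18) and HF library 1 (0.17).

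Reads that end in neither CCA nor CC do not enter the percentage of charging, so their share was measured as well. In MEF cells, 88.0%, 81.6% and 93.7% of Glu-CTC reads carried an end in the NT libraries against 93.4%, 95.6% and 93.9% in the HF libraries. For Glu-TTC the values were 92.5%, 87.4% and 95.2%, then 97.7%, 97.5% and 97.5%. The HF libraries were above all NT libraries for Glu-TTC, whereas for Glu-CTC HF library 1 was below NT library 3. The order seen for Glu-TTC was not particular to it. Asp-GTC, Gln-TTG, Pro-AGG, Pro-CGG and Pro-TGG had the same order, and the groups overlapped for Gln-CTG.
The log2 ratio of reads with an end to other reads rose by 1.09 for Glu-CTC (adjusted p = 0.0290) and by 1.76 for Glu-TTC (adjusted p = 0.00120 from limma). This was a change of most tRNAs, since 79.2% of the 48 isoacceptors were called higher, with a median change of 1.29. The standard error was 0.47 for both Glu-CTC and Glu-TTC, from a variance that limma pooled almost fully over the isoacceptors. The p-values may be too small here as well, and the calls too many. With the library median subtracted the changes were 0.02 and 0.68, and neither passed the threshold (adjusted p = 0.972 and 0.163). The call for Glu-CTC was lost on leaving out NT library 1 (1.04) or 2 (0.68), or HF library 2 (0.91) or 3 (1.16). The share of reads with an end and the charging thus differed together between the MEF groups, and the part of the one in the other was not tested. What the reads with neither end are was not tested.

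The second comparison asked how tRNA-Glu moved relative to tRNA-Pro, the other substrate of EPRS. In MEF cells tRNA-Pro was charged at 49.6%, 42.1% and 55.5% in the NT libraries and at 29.9%, 16.0% and 8.18% in the HF libraries, and tRNA-Glu at 62.4%, 44.3% and 83.5%, then 90.9%, 91.4% and 85.9%. tRNA-Glu minus tRNA-Pro on the log2 scale was 0.75, 0.13 and 2.02 in the NT libraries against 4.55, 5.80 and 6.10 in the HF libraries. The difference was larger in each HF library than in any NT library. The mean difference went from 0.97 ± 0.96 (SD, n = 3) to 5.48 ± 0.82 (SD, n = 3), a change of 4.51 with p = 0.1 in the exact permutation test, the smallest it allows, and 0.15 after adjustment over the 3 amino acids compared. The fall of tRNA-Pro was also what told the columns apart, so the direction of this change is not independent of that reading.
tRNA-Gln and tRNA-Asp, whose amino acids are closest to glutamate and which are charged by other synthetases, served as further comparisons. tRNA-Glu minus tRNA-Gln was -1.56, -1.26 and -0.33 in the NT libraries against -0.01, -0.07 and -0.06 in the HF libraries. tRNA-Glu was below tRNA-Gln in each of the 6 libraries, and the gap was smaller in every HF library. The change was 1.00 with p = 0.1 and an adjusted value of 0.15 in the exact permutation test. tRNA-Glu minus tRNA-Asp was 1.68, 1.22 and 0.91, then 1.99, 1.65 and 1.69, groups that overlapped, with a change of 0.51 and p = 0.2 in the exact permutation test.

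**Figure D4:**
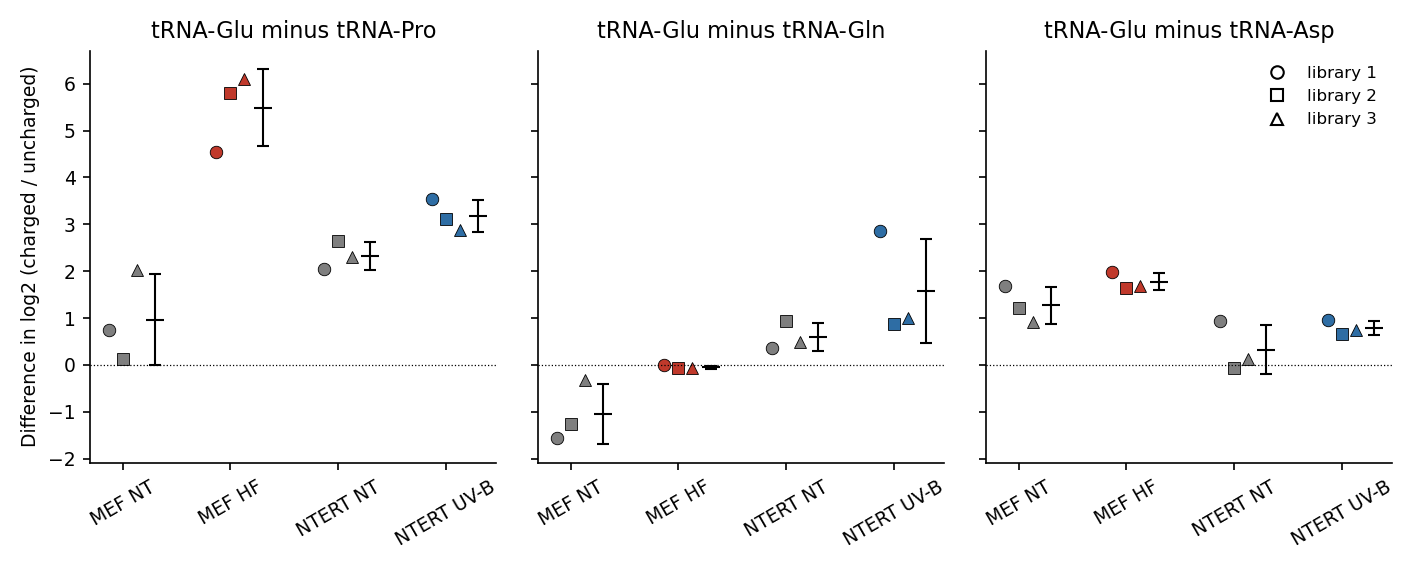
Difference between tRNA-Glu and tRNA-Pro, tRNA-Gln or tRNA-Asp in log2 (charged/uncharged), computed within each library. Points are libraries, and horizontal marks with bars the mean and SD of 3 libraries. The difference from tRNA-Pro is 0.13 to 2.02 without HF and 4.55 to 6.10 with it.

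The third comparison asked whether UV-B changed the charging of tRNA-Glu in NTERT cells. Glu-CTC was charged at 63.9%, 61.8% and 54.4% in NT libraries 1 to 3, and at 84.2%, 61.8% and 65.2% in the UV-B libraries. Glu-TTC was charged at 57.6%, 56.5% and 62.8% in the NT libraries, and at 87.7%, 58.6% and 60.0% in the UV-B libraries. For both, UV-B library 1 was well above the rest, UV-B libraries 2 and 3 lay among or near the NT libraries, and the groups overlapped.
The means were 60.0% ± 5.01 (SD, n = 3) and 70.4% ± 12.1 (SD, n = 3) for Glu-CTC, with a log2 change of 0.75 (standard error 0.48, 95% interval -0.37 to 1.87, adjusted p = 0.986 from limma). For Glu-TTC they were 59.0% ± 3.38 (SD, n = 3) and 68.8% ± 16.4 (SD, n = 3), with a log2 change of 0.78 (standard error 0.61, 95% interval -0.63 to 2.20, adjusted p = 0.986). Neither passed the threshold. limma called 0 of the 47 isoacceptors tested in NTERT cells (0% higher), and 0 had an unadjusted p under 0.05. The changes of Glu-TTC and Glu-CTC ranked 4 and 5 of the 47, beside a median of 0.06.

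The change rested on UV-B library 1. Its log2 ratio was above the mean of the other UV-B libraries by 1.62 for Glu-CTC and 2.29 for Glu-TTC, where the median isoacceptor was above it by 0.77. Without that library the changes were 0.21 for Glu-CTC and 0.02 for Glu-TTC. With the median isoacceptor of each library subtracted, all UV-B libraries lay above all NT libraries for both members, an order that 10.6% of the 47 isoacceptors had. These relative changes were 0.82 and 0.85 (adjusted p = 0.935 from limma for each), and 0.42 and 0.23 without UV-B library 1.

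Unlike in MEF cells, the order of the isoacceptors varied between NTERT libraries. Glu-CTC minus Glu-TTC on the log2 scale was 0.39, 0.31 and -0.50 in the NT libraries against -0.42, 0.19 and 0.32 in the UV-B libraries. Glu-CTC was more charged in 4 of 6 libraries, and Glu-TTC in NT library 3 and UV-B library 1. The change between the groups was -0.03 with p = 0.9 in the exact permutation test.

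At the gene level, all 7 Glu genes were tested in NTERT cells. All 7 had a positive mean log2 change after UV-B, as had 97 of all 168 genes tested. The changes of the Glu genes ran from 0.61 to 1.38 with a median of 0.78, beside a median of 0.08 over the 168. limma called 0 of the Glu genes and 0 of the 168 (0% higher), 3 of which had an unadjusted p under 0.05. Glu-TTC-14-1 was charged at 42.9%, 46.9% and 50.1% in the NT libraries and at 88.1%, 54.5% and 57.4% after UV-B. It had the largest change of the 7, 1.38, and its groups did not overlap, as was also the case for Glu-TTC-4-1 (0.85) and for 4.17% of all genes tested. Without UV-B library 1 the change of Glu-TTC-14-1 was 0.54 and that of Glu-TTC-4-1 0.24, and those of Glu-TTC-1-1 and Glu-TTC-2-1 were -0.07 and -0.21.

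Glu-CTC-2-1 stood apart from the other genes in NTERT cells. It was charged at 33.7%, 31.0% and 25.1% in the NT libraries and at 29.6%, 37.5% and 51.7% in the UV-B libraries, below each of the other 6 Glu genes in 6 of 6 libraries. Those genes ranged from 42.9 to 65.7% in the NT and from 51.6 to 88.6% in the UV-B libraries. It was also the only Glu gene that was not raised in UV-B library 1, where it was lowest among the UV-B libraries.
Few of its reads carried an end. Of its 2995 to 31673 reads per library, 10.4%, 4.0% and 10.7% had one in the NT libraries against 2.15%, 9.35% and 16.0% in the UV-B libraries, so that the percentages of charging rest on 152 to 3394 reads. In the other Glu genes 22.4 to 62.2% of the reads carried an end. Glu-CTC-2-1 held 0.845 to 10.8% of the reads of tRNA-Glu but weighed little in the charging of Glu-CTC, which was 0.0606 to 0.461 percentage points below that of Glu-CTC-1-1 alone.

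**Figure D5:**
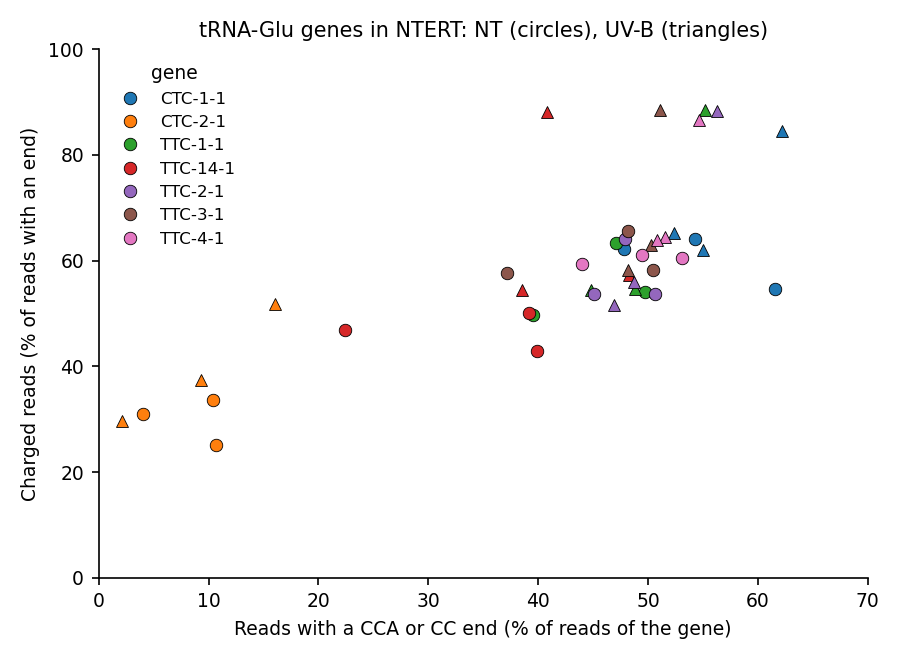
Percentage of charging against the percentage of reads with a CCA or CC end for the 7 Glu genes in NTERT cells, 1 point per gene and library. Glu-CTC-2-1 lies at the lower left, between 2.15 and 16.0% of reads with an end, and the 6 upper points near 84.5 to 88.6% are the other genes in UV-B library 1.

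The amounts of reads showed no change past the threshold after UV-B. Glu-CTC took 16.7%, 20.5% and 26.7% of the reads on tRNA genes in the NT libraries against 17.1%, 17.6% and 18.8% in the UV-B libraries, a log2 change of -0.26 with an adjusted p of 0.752 in limma. Glu-TTC took 9.23%, 8.35% and 10.9%, then 10.2%, 8.97% and 13.4%, a log2 change of 0.15 with an adjusted p of 0.853. The groups overlapped for both, and limma called 0 of 48 isoacceptors (0% higher, 0% lower), 4 of which had an unadjusted p under 0.05. The log2 ratio of Glu-CTC to Glu-TTC reads was 0.86, 1.30 and 1.29 in the NT libraries against 0.75, 0.97 and 0.49 in the UV-B libraries, a change of -0.41 with p = 0.2 in the exact permutation test and overlapping groups.
The share of reads with an end showed no change past the threshold either. Of the Glu-CTC reads, 53.0%, 41.2% and 58.5% carried an end in the NT libraries against 54.3%, 53.2% and 51.8% in the UV-B libraries. Of the Glu-TTC reads, 51.5%, 41.9% and 48.3% did, then 54.3%, 48.7% and 49.8%. The log2 changes were 0.13 (adjusted p = 0.824 from limma) and 0.21 (adjusted p = 0.749), where 0% of the 48 isoacceptors were called and 3 had an unadjusted p under 0.05. Fewer tRNA-Glu reads carried an end in NTERT than in MEF libraries, but the species were aligned to separate references and were not compared by a test.

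tRNA-Glu was also set against tRNA-Pro after UV-B, and the difference did not pass the test. tRNA-Pro was charged at 28.1%, 19.5% and 20.9% in the NT libraries and at 33.7%, 15.1% and 18.9% in the UV-B libraries, groups that overlapped. tRNA-Glu minus tRNA-Pro on the log2 scale was 2.04, 2.64 and 2.30 in the NT libraries against 3.54, 3.12 and 2.88 in the UV-B libraries, groups that did not overlap. The mean went from 2.33 ± 0.30 (SD, n = 3) to 3.18 ± 0.33 (SD, n = 3), a change of 0.85 with p = 0.1 in the exact permutation test, the smallest it allows, and 0.3 after adjustment. Without UV-B library 1 the change was 0.67. Against tRNA-Gln the change was 0.98 (p = 0.2 in the exact permutation test), and 0.35 without UV-B library 1, which alone had a difference of 2.85. Against tRNA-Asp it was 0.46 (p = 0.3 in the exact permutation test).

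Finally, the isoacceptors whose charging followed tRNA-Glu most closely from library to library were listed, by the root mean square difference of their log2 ratios after each had been centred on its own mean over the 6 libraries. In MEF cells these were Asp-GTC (0.354), Arg-CCT (0.422) and Val-AAC (0.485), against a median of 0.724 over 46 isoacceptors. Asp-GTC was charged at 34.1%, 25.4% and 72.9% in the NT libraries and at 71.6%, 77.1% and 65.5% in the HF libraries, with the same low NT libraries 1 and 2 as tRNA-Glu and a lower level. In NTERT cells they were Leu-CAG (0.367), Gly-CCC (0.385) and Asp-GTC (0.390), against a median of 0.604 over 45. Leu-CAG was charged at 37.4%, 36.1% and 43.0% in the NT libraries and at 59.8%, 41.8% and 41.5% in the UV-B libraries, again with UV-B library 1 above the rest. The points share their libraries, so these are descriptions of the same 6 libraries in each cell type.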

How the data were processed

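The members and lists were chosen with earlier results of these data known. The authors separated reads by barcode, trimmed them with cutadapt (the submitters' processing notes list Trim Galore), aligned them with Bowtie2 to tRNA genes with CCA added and dropped reads under 20 nt. The human reference was the GRCh38 set of gtRNAdb without duplicates, and the notes also list GRCm38 for mouse. The deposited values are read counts per gene without normalization, with no header: all reads, reads ending in CCA and reads ending in CC. The columns were told apart by the fall of tRNA-Pro under HF. In the human names, the letters Glu appear as GlT. Unaligned reads and yeast tRNA were left out, and 0 columns of other samples were present. NTERT file names carry other replicate numbers than the labels, whose numbers were used.

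Reads were summed by gene, isoacceptor and amino acid. limma 3.58.1 in R 4.3.3 tested log2 ratios per library with a pseudocount of 0.5, for features with a mean of at least 50 reads (charging: reads with an end), with Benjamini-Hochberg adjustment for each cell type apart (threshold 0.05). The share of reads was tested as log2 CPM after TMM scaling (trims of 30% and 5%). The study's test of percentages was not used with 3 libraries a group, and count models were not run, since the colon-separated lines could not be checked as counts. Differences within a library were compared by two-sided exact permutation tests over 20 labelings. p-values set a change against the spread between libraries of a group. In the MEF fits of charging (without subtraction of the median) and of the share of reads, limma pooled that spread over all features. It did so almost fully in the MEF isoacceptor fit of the share of reads with an end. In these fits the standard error is not that of the single tRNA. Named were both isoacceptors, every Glu gene, tRNA-Pro, tRNA-Gln and tRNA-Asp, and the 3 isoacceptors most like tRNA-Glu. The tests were tried on simulated data whose isoacceptors varied independently within a library. The real isoacceptors moved together, so that trial cannot show whether the pooled MEF p-values are too small. The adaptor carries random bases, but no removal of duplicates by them is stated, so Wilson intervals cover counting error only. Loci came from RefSeq GRCm38.p6 and GENCODE, and no tRNA sequences were used here.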

Additional observations from a re-analysis of the deposited data

How the results depend on the processing

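Over 40 results, 358 alternatives were computed. Of these, 298 kept the direction and, where one applied, the side of the threshold. A further 43 kept the direction only, 5 newly passed and 12 reversed. The within-library differences had no adjusted p in these counts, so only their direction was compared. In MEF cells, the charging calls were lost with the library median subtracted (0.72 for Glu-CTC, 0.77 for Glu-TTC and 0.84 for tRNA-Glu, with or without the replicate block), and on the percentage scale for Glu-TTC (20.4 points, adjusted p = 0.0788). Same-numbered libraries did not deviate together in charging (correlations from -0.11 to -0.03 in MEF and -0.49 to 0.02 in NTERT cells), so the numbers were not taken to pair them. For the share of reads, the correlations were 0.16, 0.08 and -0.34 for MEF numbers 1 to 3, and -0.31, 0.59 and 0.53 for NTERT numbers 1 to 3. The crossed pairs of NTERT numbers 2 and 3 had -0.59 and -0.71. Whether same-numbered libraries share a batch was not tested. With a replicate block, the changes stayed 2.08, 2.13 and 2.20 with adjusted p-values of 0.109, 0.109 and 0.168, and calls among the 48 MEF isoacceptors went from 9 to 0, with 11 at an unadjusted p under 0.05. The 3 calls for MEF Glu genes were also lost under the block, and no other call for tRNA-Glu isoacceptors changed. Leaving out 1 library gave ranges of 1.51 to 2.75 for Glu-CTC, 1.47 to 2.89 for Glu-TTC and 1.58 to 2.91 for tRNA-Glu, with 0 to 22 isoacceptors called.

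For the share of reads, leaving out 1 library gave -0.34 to 0.041 for Glu-CTC in MEF (positive without NT library 3) and -0.11 to 0.32 for Glu-TTC in NTERT cells (negative without UV-B library 3). The isoacceptors called for the share of reads in MEF cells were 7 with TMM, 1 with library totals, 4 without a minimum and 3 with reads of either end only, and Glu isoacceptors were called in none of these. For the share of reads with an end, subtracting the library median gave 0.019 and 0.68 in MEF and -0.12 and -0.036 in NTERT cells for Glu-CTC and Glu-TTC, and the range without 1 library was 0.68 to 1.55 for Glu-CTC in MEF and -0.15 to 0.35 in NTERT cells. The change in Glu-CTC minus Glu-TTC charging ranged from -0.15 to 0.041 in MEF and from -0.32 to 0.19 in NTERT cells without 1 library, so its sign is not determined. Among NTERT genes, leaving out 1 library gave -0.074 to 1.27 for Glu-TTC-1-1, -0.21 to 1.22 for Glu-TTC-2-1 and -0.0002 to 1.24 for Glu-TTC-3-1, negative without UV-B library 1 in each. The cause of these changes was not tested. The edgeR and DESeq2 alternatives were not run. With 3 libraries a group, the spread between libraries and not the number of reads limits the charging of the main genes, and an exact test cannot go below p = 0.1.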
